A study of Mus musculus with 663 samples.

Results

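Stromal-lineage cells of the mouse ovary were compared between E16.5 and P6, which are days of embryonic and of postnatal development. The cells were chosen by measured values. For each cell, the mean log2(RPKM + 1) of 5 supporting-lineage genes (Foxl2, Fst, Kitl, Runx1, Wnt4) was subtracted from that of 5 stromal genes (Nr2f2, Pdgfra, Dcn, Col1a1, Tcf21), and cells with a difference of at least 1 were kept. RPKM, taken from the values as the unit of the deposited table, is the number of reads of a gene scaled by its length and by the reads of the library. The rule kept 104 of the 216 cells of these stages, out of 662 cells in the series. At E16.5 it kept 17 of 55 cells in the first capture (30.9%, exact binomial 95% interval 19.1 to 44.8) and 20 of 40 in the second (50%, 33.8 to 66.2). At P6 it kept 26 of 55 (47.3%, 33.7 to 61.2) and 41 of 66 (62.1%, 49.3 to 73.8). These shares follow from the rule and from the sort, so they carry no test.

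The mice carried the NR5A1-eGFP reporter on a mixed background, and their XX gonads gave the cells of both stages. These had been sorted for green fluorescence with dead cells removed, so stromal cells without the reporter are not among them. Each capture was 1 run of a small C1 microfluidic chip, which isolates single cells and amplifies their polyadenylated RNA. Each stage had 2 captures, all of 1 sequencing series, and the labels do not say whether captures were of separate litters. The p-values therefore rest on how captures differ, which may be technical only.

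The ovarian stroma is the tissue between follicles. It holds fibroblast-type cells marked by the nuclear receptor NR2F2 and by collagens, and its progenitors later give rise to the steroid-producing theca cells that surround growing follicles. Granulosa cells of growing follicles are a known source of hedgehog ligands, and PTCH1, HHIP and GLI1 are classical targets of hedgehog signalling in the responding cells. Many imprinted genes, which are expressed from 1 parental allele, promote or restrain fetal growth.

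The label was checked against stromal markers outside the rule. The summed level of 15 such genes was 1569 and 1496 RPKM in the E16.5 captures and 2307 and 2158 RPKM at P6. These include Ogn, Ptch1, Gli1 and Cxcl12, given below as higher at P6, so the rise in the sum is partly theirs. The sum was not compared with that of cells outside the rule. At least 13 of the 15 reached 1 RPKM in every capture. Markers of other cells were low in sum but not all at 0. The 10 immune markers summed to 4.95, 2.11, 35.7 and 4.25 RPKM in the 4 captures, in the order E16.5 and then P6, with C1qb, C1qc, Fcer1g and Tyrobp at 0 and C1qa and Csf1r detected. The 12 germ cell markers summed to 33.9, 1.63, 5.83 and 1.33 RPKM, with Dppa3, Dppa5a, Pou5f1, Zp2, Gdf9, Figla and Ooep at 0 and Sycp3 at 32, 1.35, 0.576 and 0.0152. The 10 endothelial markers summed to 7.67, 4.87, 15 and 16 RPKM, with Tek, Cldn5 and Flt1 at 0. Markers of the surface epithelium did differ between the stages. Their summed level over 10 genes was 339 and 69.3 RPKM at E16.5 and 0.0196 and 42.6 at P6, and 4, 1, 0 and 1 gated cells had a mean log2(RPKM + 1) of at least 2 over them. The part of these cells in the results was measured by leaving them out. Gated cells of the 4 captures had medians of 4553, 3804.5, 4339 and 3411 genes above 0. The part of this difference in the results was not tested. Granulosa markers were also higher at P6, with a summed level over 12 genes of 309 and 280 RPKM at E16.5 and 628 and 390 at P6, while Cyp19a1 was at 0 throughout. Pregranulosa markers went the other way in sum, with a level over 10 genes of 96.4 and 131 RPKM and then 48.4 and 40.9. Of 6 tested members, 3 (Rspo1, Gatm and Emx2) were at least 2-fold lower without overlap. By the same measure 1 member, Gng13, was higher at P6. In the 4 captures, 1, 1, 2 and 2 cells had a mean log2(RPKM + 1) of at least 2 over the granulosa markers or those of endothelial, immune, germ or erythroid cells. Without them limma called 0 of 11714 genes, with 1053 at an unadjusted p under 0.05, and the log2 change was 5.52 for Ogn, 5.34 for Ptch1 and -4.26 for H19. Inha, a granulosa marker, had 4.23 in place of 5.27, and Gja1 turned from 0.17 to -0.03. Mesonephric markers were at 66.7 and 37.3 RPKM over 7 genes at E16.5 and at 0.307 and 5.41 at P6, with Pax2, Lhx1 and Cdh16 at 0. The part of the pregranulosa and mesonephric markers in the results was not tested. Doublets were not called. Only 5 cells of both stages lay within 0.5 of the threshold. The nearest cells inside had differences of 1.07, 1.55 and 1.61, and the nearest outside 0.683, 0.667 and 0.593.

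The genes of the rule are given as a description only. Nr2f2 was at 215 and 249 RPKM at E16.5 and 230 and 364 at P6. Dcn, which encodes the proteoglycan decorin, was at 609 and 469 RPKM and then at 1056 and 1654. Foxl2, a transcription factor gene of the supporting lineage, was detected in 3 of 37 gated cells at E16.5 and 37 of 67 at P6. Its mean was 0.00753 and 3.97 RPKM at E16.5 and 20.6 and 25.1 RPKM at P6. Nr5a1, the gene behind the reporter, was at 17.3 and 5.46 RPKM and then at 27.6 and 10.6, and its captures overlapped (log2 change 0.74 ± 0.90 SE, limma adjusted p = 0.914).

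The stages were compared gene by gene on log2(mean RPKM over the gated cells of a capture + 1), with the 10 genes of the rule left out. Fold changes on this scale understate those of low genes. limma called 0 of 11904 genes at an adjusted p under 0.05 (0% higher and 0% lower), with 1071 at an unadjusted p under 0.05 and a smallest adjusted p of 0.534. A single gene outside this fit could not pass either, since an exact permutation of 2 captures against 2 cannot give a p below 0.333. Differences passed the test when all 12 captures of the series entered the fit, with stage and sequencing series as terms. The same contrast then had 50 called genes, 29 higher at P6 (0.244%) and 21 lower (0.176%), and in each of the 50 the captures of both stages did not overlap. The other captures in that fit are of earlier stages, so its estimate of the spread comes in part from other ages. With the mean over cells of log2(RPKM + 1), which weighs how many cells express a gene, 6 genes were called higher (0.0504%) and 4 lower (0.0336%). Both settings called 5 genes: Ogn, Ptch1, H19, Mir675 and Mmp11. For a wider description, 1778 genes (14.9%) were at least 2-fold higher at P6 on this scale with captures that did not overlap, and 1332 (11.2%) were at least 2-fold lower. These shares are the background for the counts in gene lists below. A gene with at least 1 RPKM in both captures of 1 stage and in none of the other passed the filter through that stage. Its captures could not overlap, which holds for the lists and for all genes. Most of the 50 called genes were of this kind, Mfap5 and Crabp1 among them, so their lack of overlap adds nothing to the call.

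**Figure D1:**
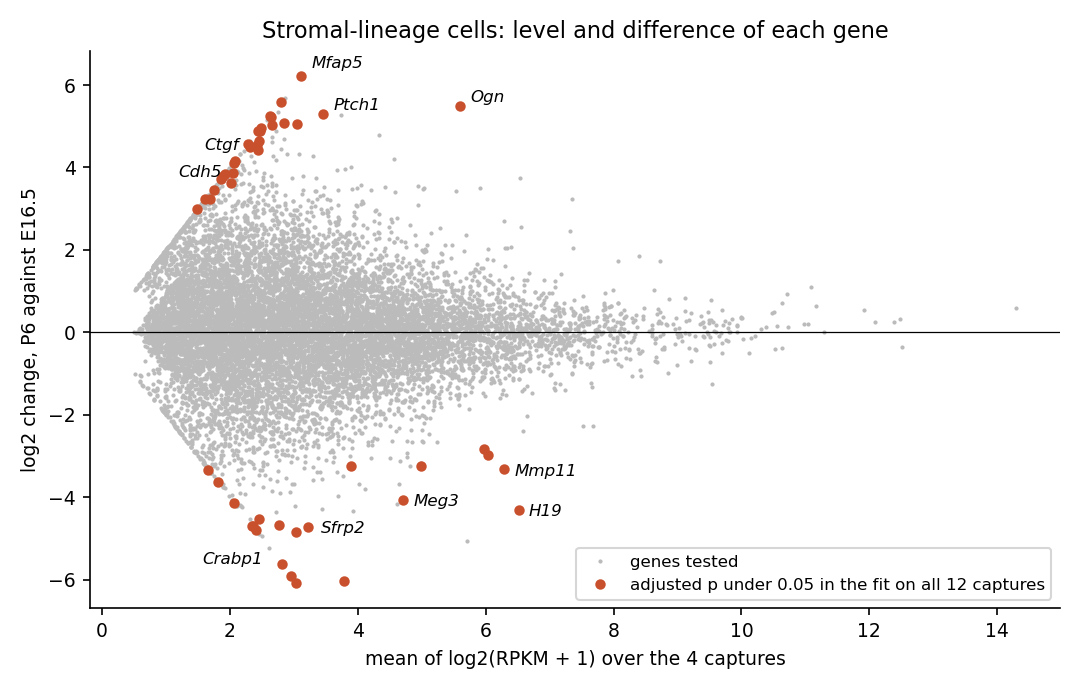
Each point is 1 of 11904 genes in the stromal-lineage cells, with the mean of log2(RPKM + 1) over the 4 captures on the x axis and the log2 change from E16.5 to P6 on the y axis. The 50 red points are genes with an adjusted p under 0.05 in the limma fit on all 12 captures. Ogn (log2 change 5.48) and H19 (-4.31) lie far from the genes of similar mean level.

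Ogn was called higher in the fit on all 12 captures, and its neighbours Aspn, Omd and Ecm2 had the same direction without passing a test. Ogn encodes osteoglycin, a small leucine-rich proteoglycan that binds collagen fibrils. It stood at 15.2 and 2.25 RPKM in the E16.5 captures and at 359 and 292 RPKM at P6. Both P6 captures were far above both E16.5 captures (log2 change 5.48 ± 0.79 SE, limma adjusted p = 0.539 on 4 captures and 0.0395 on all 12). In single cells it reached 1 RPKM in 5 of 37 cells at E16.5 and in 52 of 67 at P6, where the highest cell gave 16.8% and 15.4% of the capture's signal. With the mean over cells of log2 values its change was 5.09 ± 0.76 (adjusted p = 0.00340).

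Ogn lies on chromosome 13 in GRCm38 (49608046 to 49624501, plus strand), beside Aspn (49544443 to 49567565), Omd (49582462 to 49592822) and Ecm2 (49504810 to 49532789), which encode other leucine-rich matrix proteins. This neighbourhood was chosen after its values were seen. Aspn, which encodes asporin, was at 0.0158 and 2.52 RPKM at E16.5 and at 63.7 and 21.2 at P6. Omd, which encodes osteomodulin, was at 0.644 and 0.953 RPKM and then at 29.9 and 7.47. It passed the filter through P6 alone, so its captures could not overlap. Ecm2 was at 0 and 1.40 RPKM and then at 7.70 and 7.17. The captures did not overlap in any of them, but none was called by limma: the adjusted p was 0.539, 0.539 and 0.549 for Aspn, Omd and Ecm2 on 4 captures and 0.0618, 0.279 and 0.224 on all 12. They were detected in 3, 2 and 1 of 37 cells at E16.5 and in 9, 8 and 12 of 67 at P6. Also, 1 cell gave 92.1% and 76.4% of the P6 signal of Aspn, and 63.8% and 93.2% of that of Omd. Cenpp, a centromere protein gene whose annotated span on the minus strand covers all of these genes, was at 1.96 and 9.16 RPKM and then at 24.2 and 22.6. Reads of overlapping genes cannot be told apart where the library does not mark the strand. The next genes, Nol8 (8.81 and 2.43, then 5.82 and 15.2 RPKM) and Iars (26.1 and 7.78, then 7.63 and 23.2), had captures that overlapped. Tes3-ps, within the span of Cenpp, overlapped too (8.19 and 18.9, then 18.2 and 15.3 RPKM). Ippk, at the other end of Cenpp, had the opposite direction without overlap (6.21 and 4.65, then 2.83 and 0.111 RPKM).

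The bases before the RefSeq start of Ogn are shown because it had the highest level among the called genes that were higher at P6. They are RefSeq's chr13:49607765-49608014 of GRCm38.p6 on the plus strand, 250 bases. The capitals mark GGAATG, the core recognised by TEAD factors, searched on both strands. It occurred once, beginning 86 bases before the start, and in 12.6% of 32851 promoter windows of the same length.
Ogn: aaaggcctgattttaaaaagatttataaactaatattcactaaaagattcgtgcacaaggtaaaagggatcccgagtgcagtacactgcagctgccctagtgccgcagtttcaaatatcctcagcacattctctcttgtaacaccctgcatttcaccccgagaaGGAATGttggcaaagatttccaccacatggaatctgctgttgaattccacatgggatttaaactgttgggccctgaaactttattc
The windows of Aspn, Omd, Ptch1, Hhip and Mmp11 held no GGAATG. The string GACCACCCA, taken for GLI factors, was searched in the same way. It had no match in the windows of Ogn or of these other genes, and occurred in 0.225% of the 32851 windows. A match is a string of letters and not a measured binding site.

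Hedgehog pathway genes differed in both directions. Ptch1, which encodes the receptor of hedgehog ligands and is itself a target of the pathway, was at 1.48 and 0.239 RPKM at E16.5 and at 74.4 and 61.8 RPKM at P6. The captures were far apart (log2 change 5.29 ± 0.85 SE, limma adjusted p = 0.539 on 4 captures and 0.0228 on all 12). It was detected in 7 of 37 cells at E16.5 and in 51 of 67 at P6, with a median among detecting cells of 2.87 and 31 RPKM. Of the 10 pathway members tested, 4 were at least 2-fold higher without overlap and 3 lower, against 14.9% and 11.2% of all genes, and the list median was -0.60 beside 0.08 for all genes. Hhip and Gli1, also targets, were among the higher members. Hhip, which encodes a decoy that binds the ligands, was at 0 in both E16.5 captures and at 3.17 and 5.69 at P6. It passed the filter through P6 alone, so its captures could not overlap. Gli1, a transcription factor gene, was at 0 and 1.14 RPKM and then at 8.15 and 6.02. At P6, Ptch1 was detected in 10 of 11 cells with Hhip and 13 of 15 with Gli1, and in 76.1% of all cells.

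The lower members act at the cell surface upstream of the targets. Smo, which encodes the signal transducer that PTCH1 restrains, was at 34 and 60.6 RPKM at E16.5 and at 9.92 and 28.3 at P6. The co-receptor genes Boc (11.1 and 24.1, then 5.34 and 1.80 RPKM) and Cdon (12.9 and 10.0, then 0.963 and 1.88) were lower too, and Gas1 (89.9 and 41.2, then 26.8 and 53.7) overlapped. The ligand genes Shh, Ihh and Dhh were near 0 in stromal-lineage cells, at most 0.344 RPKM in any capture. In the supporting-lineage cells of the same chips, those with the difference reversed, Ihh was at 0 in both E16.5 captures and at 5.71 and 6.59 RPKM at P6, in 2 cells of each P6 capture.

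**Figure D2:**
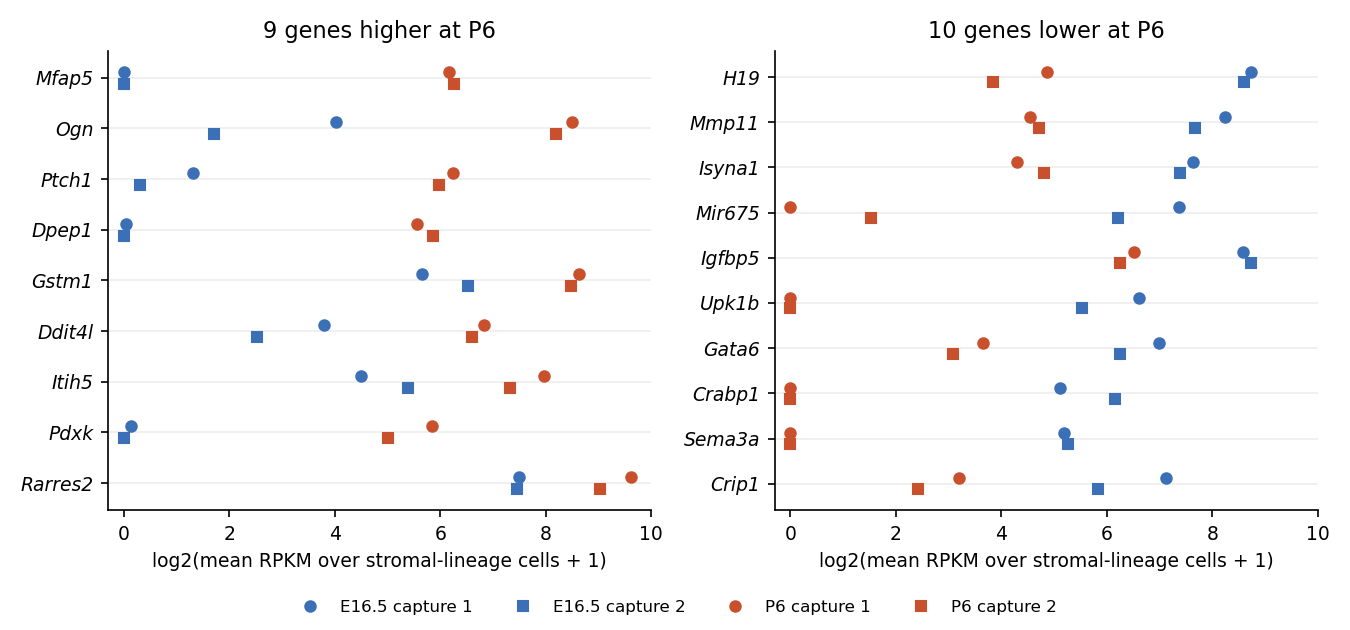
Points show log2(mean RPKM + 1) of stromal-lineage cells in each capture (circles, first capture; squares, second) at E16.5 (blue) and P6 (red), for 9 genes higher and 10 lower at P6 with the lowest unadjusted p among genes of at least 10 RPKM in a stage. Only genes whose captures did not overlap between the stages could be chosen, such as Ptch1 at 1.48 and 0.239 RPKM against 74.4 and 61.8.

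Complement and acute-phase genes were higher at P6 in most of the members tested. Of the 8 complement and acute-phase genes tested, 6 were at least 2-fold higher without overlap and 0 lower, with a list median of 1.79 beside 0.08 for all genes. Among them were Serping1, the C1 inhibitor gene (79.8 and 17.5, then 241 and 213 RPKM), Serpinf1 (31.6 and 87.4, then 103 and 172) and Clu, the clusterin gene (21.4 and 54.4, then 90.7 and 88.5). C1s1 was higher by less in RPKM (10.1 and 0, then 19 and 11.2). The size depended on single captures in 3 of these 6 genes: without E16.5 capture 1 the log2 change was 0.60 for Serpinf1 and 0.71 for Clu, and without E16.5 capture 2 it was 0.48 for C1s1.

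Mfap5, which encodes a microfibril-associated glycoprotein, was listed at 0 in both E16.5 captures and at 71.2 and 75.8 RPKM at P6 (limma adjusted p = 0.539 on 4 captures and 0.0142 on all 12). It was detected in 0 of 37 and 16 of 67 cells, and 14 of these 16 also had Ptch1 and 14 had Ogn. The abundant Mfap2 (1763 and 1634, then 1490 and 1100) and Mfap4 (527 and 189, then 386 and 308), of the same microfibrils, differed by less than 2-fold. Elastic fibre genes together showed no common direction: 3 of 18 were at least 2-fold higher without overlap and 2 lower, and the list median of 0.08 equalled that of all genes. Gstm1, a glutathione transferase gene, was at 49.4 and 91.3 RPKM and then at 396 and 354, in 12 of 37 and 51 of 67 cells. Dpep1, a membrane dipeptidase gene, was at 0.0321 and 0 RPKM and then at 46.1 and 57.2, in 0 of 37 and 13 of 67 cells. Ddit4l was at 12.9 and 4.77 RPKM and then at 113 and 95.7, and Itih5, which encodes a hyaluronan-associated protein, at 21.5 and 40.7 and then at 249 and 160. The remaining named genes were Pdxk (0.103 and 0.00708, then 56.6 and 31.3) and Rarres2, the chemerin gene (179 and 174, then 788 and 520). Mfap5, Dpep1 and Pdxk passed the filter through P6 alone, so their captures could not overlap.

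Further genes called higher in the fit on all 12 captures were detected in fewer cells than Ogn and Ptch1. Among them, Cdh5, an adhesion gene best known from endothelium, was at 0 and 0.171 RPKM and then at 13.8 and 15.7 (limma adjusted p = 0.0349 on 12 captures), in 2 of 37 and 18 of 67 cells. The sums of the endothelial markers given above include it. Of the 18 cells with Cdh5, 10 had Enpep, an aminopeptidase gene (0.226 and 0, then 19.8 and 35.3 RPKM), and 1 had Mfap5. Mfap5 and Enpep were both detected in 2 cells, out of 16 and 20. Ctgf, a matricellular growth factor gene, was at 0.384 and 0 RPKM and then at 24.7 and 23.8, with 1 cell giving 60.3% and 73.1% of the P6 signal. Tmem100 (0 and 0.0115, then 83.5 and 26.5 RPKM), Bmp3 (0.00868 and 0, then 43.6 and 18.9) and Akr1c14, a steroid-metabolising reductase gene (0.00877 and 0, then 22.6 and 39.8), were detected in 25, 11 and 14 of 67 cells at P6. Cdh5, Enpep, Ctgf, Tmem100, Bmp3 and Akr1c14 passed the filter through P6 alone, so their captures could not overlap.

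**Figure D3:**
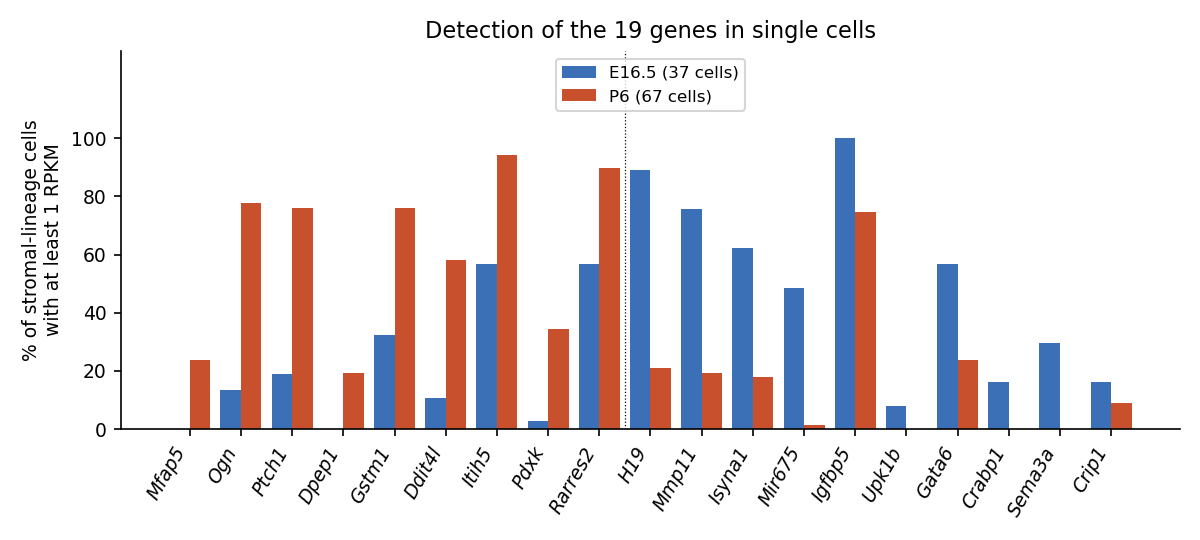
Bars show the percentage of stromal-lineage cells with at least 1 RPKM of each of 19 genes at E16.5 (blue, 37 cells) and P6 (red, 67 cells), pooled over the 2 captures of a stage. Ogn goes from 5 of 37 to 52 of 67 cells and H19 from 33 of 37 to 14 of 67, while Upk1b rests on 3 cells of E16.5.

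Imprinted growth genes were lower at P6 in most of the members tested. H19, a noncoding RNA gene on chromosome 7 (142575529 to 142578143, minus strand), was at 427 and 386 RPKM at E16.5 and at 28.3 and 13.4 RPKM at P6. The captures were far apart (log2 change -4.31 ± 0.47 SE, limma adjusted p = 0.534 on 4 captures and 0.0142 on all 12; -6.20 ± 0.84, adjusted p = 0.00233, with the mean over cells of log2 values). It was detected in 33 of 37 and 14 of 67 cells. In the first P6 capture 1 cell gave 74.5% of the remaining signal. Igf2, the neighbouring growth factor gene, was at 32.5 and 61.5 RPKM and then at 5.17 and 2.73 (adjusted p = 0.0464 on all 12 captures, limma), in 27 of 37 and 6 of 67 cells. At E16.5, 25 of the 27 cells with Igf2 also had H19. Cdkn1c, a cyclin-dependent kinase inhibitor gene of the same chromosome region, was at 312 and 155 RPKM and then at 48.4 and 34.3.

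Of 16 imprinted growth genes tested, 11 were at least 2-fold lower without overlap and 0 higher, against 11.2% and 14.9% of all genes. The list median was -1.29 beside 0.08. Meg3, a noncoding RNA gene on chromosome 12, was at 87.5 and 128 RPKM and then at 11.9 and 2.13 (adjusted p = 0.0395 on all 12 captures, limma), and Dlk1, which encodes a Notch ligand-like protein near it, at 7.90 and 6.45 and then at 2.31 and 1.47. Peg3 was at 110 and 97.1 RPKM and then at 48.2 and 38.9, Mest at 158 and 112 and then at 46.6 and 45.6, and Ndn at 267 and 180 and then at 68.7 and 123. Grb10, an inhibitor of insulin receptor signalling, was at 24.1 and 54.5 RPKM and then at 16.4 and 12.8. Igf2r, the receptor that clears IGF2, was at 44.6 and 58 RPKM and then at 15.8 and 16.3, and Slc38a4 at 63.2 and 49.9 and then at 22.6 and 21.4. The captures of the 5 other members, Plagl1, Peg10, Gnas, Zim1 and Sgce, overlapped.

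Mir675 is the gene of a microRNA hairpin that lies within H19 (142577064 to 142577147 on chromosome 7, GENCODE vM21). Its table entry was at 163 and 73.5 RPKM at E16.5 and at 0 and 1.90 at P6 (limma adjusted p = 0.0142 on all 12 captures). The libraries held polyadenylated RNA, so reads there cannot be told apart from those of H19, and the mature microRNA was not measured. The arms of the hairpin are printed because Mir675 was 1 of the 5 genes called in both settings. Capitals mark the seed, bases 2 to 8, which differs between the arms.
mmu-miR-675-5p: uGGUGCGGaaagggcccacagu
mmu-miR-675-3p: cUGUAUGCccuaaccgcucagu
The mature sequences are those of RefSeq (GRCm38.p6), at chr7:142577112-142577133 and chr7:142577078-142577099 on the minus strand.

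Mmp11, Isyna1 and Igfbp5 were lower genes of other kinds. Mmp11, which encodes the secreted protease stromelysin-3, was at 301 and 203 RPKM at E16.5 and at 22.4 and 25.3 RPKM at P6, in 28 of 37 and 13 of 67 cells (log2 change -3.32 ± 0.42 SE, limma adjusted p = 0.539 on 4 captures and 0.0350 on all 12). Isyna1, the gene of the enzyme that makes inositol phosphate, was at 199 and 167 RPKM and then at 18.5 and 27.1 (adjusted p = 0.0395 on all 12 captures). Igfbp5, which encodes an IGF-binding protein, was at 381 and 426 RPKM and then at 90.7 and 75.3. It was detected in all 37 cells of E16.5 and in 50 of 67 at P6. Within the 13 IGF system genes tested, 5 were at least 2-fold lower without overlap and 2 higher. The higher ones were Igfbp4 (24.3 and 52, then 72.5 and 84.4 RPKM) and Igfbp7 (1.51 and 36.9, then 102 and 116). For Igfbp7 the median among detecting cells was 14.1 RPKM at E16.5 and 20.7 at P6, where the highest cell had 2345 RPKM. Igf1, the growth factor gene itself, was at 187 and 210 RPKM and then at 374 and 259, a difference under 2-fold (log2 change 0.65 ± 0.35 SE, adjusted p = 0.653 in limma).

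Wnt and R-spondin genes were lower in 6 of 12 members tested and higher in 2, by the same measure, with a list median of -1.16. Wnt5a, a ligand gene of noncanonical signalling, was at 45.8 and 48.3 RPKM and then at 5.29 and 7.39. Sfrp2, a secreted inhibitor gene, was at 45.1 and 49.2 RPKM and then at 0.0388 and 2.17 (limma adjusted p = 0.0395 on all 12 captures), in 12 of 37 and 3 of 67 cells. Lgr4, an R-spondin receptor gene, was at 305 and 336 RPKM and then at 101 and 159. Rspo1 (11.8 and 6.13, then 0.00678 and 0.276), Lef1 (3.85 and 10.6, then 0.00155 and 0.0335) and Nkd2 (24.6 and 86.3, then 15.7 and 7.58) were the other lower members. Dkk3 (0.898 and 31, then 32 and 34.2) and Tcf7 (0 and 0.368, then 7.51 and 6.60) were higher. The difference of Dkk3 rested on E16.5 capture 1, without which its log2 change was 0.09. Tcf7 passed the filter through P6 alone, and Rspo1 and Lef1 through E16.5 alone, so their captures could not overlap.

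Stromal transcription factor genes differed in both directions about as often as all genes, and hormone receptor genes were higher or overlapped. Gata6, a gonadal transcription factor gene, was at 127 and 74.8 RPKM and then at 11.53 and 7.50 (limma adjusted p = 0.0464 on all 12 captures), in 21 of 37 and 16 of 67 cells. Wt1 was at 195 and 122 RPKM and then at 59 and 59.4. Osr2, an odd-skipped related factor gene, was at 1.07 and 4.15 RPKM and then at 48 and 49.8. The highest members of that list, Nfia (169 and 158, then 136 and 156 RPKM) and Snai2 (98.2 and 193, then 126 and 43.8), differed by less than 2-fold. Of 34 stromal transcription factor genes tested, 5 were at least 2-fold higher without overlap and 5 lower, near the 14.9% and 11.2% of all genes. Of 16 nuclear and hormone receptor genes, 6 were higher and 0 lower, with a list median of 0.68. Esr2, an oestrogen receptor gene, was at 0 and 2.90 RPKM and then at 7.68 and 10.2, and Prlr, the prolactin receptor gene, at 0 and 0.00166 and then at 4.14 and 2.05. Prlr and Nr5a2 (0 and 0, then 1.11 and 1.88 RPKM) passed the filter through P6 alone, so they could only be higher without overlap. The steroid synthesis genes Cyp17a1 and Cyp19a1 were listed at 0 in all 4 captures, and Star did not exceed 0.00496 RPKM. Hsd3b1, an enzyme gene of the same pathway, was at 0.0268 and 0 RPKM and then at 72.5 and 0.247, in 0 of 37 and 15 of 67 cells, with 68.4% of the first P6 capture in 1 cell.

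**Figure D4:**
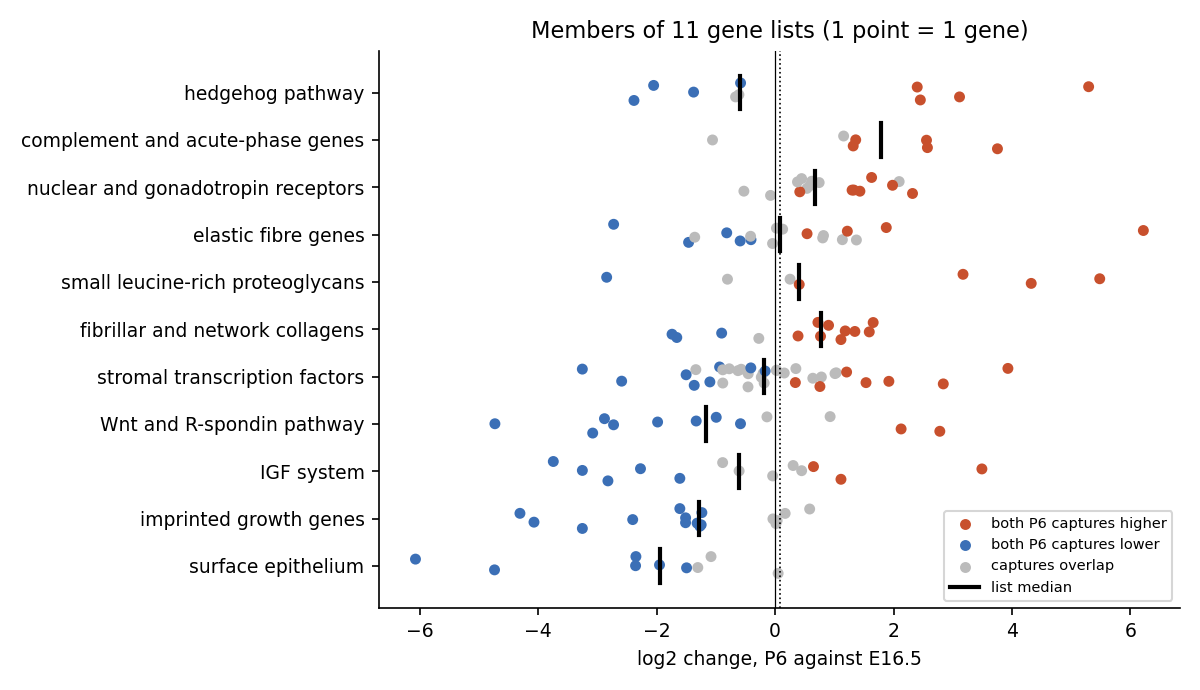
Each point is the log2 change of 1 gene from E16.5 to P6, for 11 gene lists on the y axis; red and blue points have both P6 captures above or below both E16.5 captures, grey points overlap, thick bars are list medians, and the dotted line is the median of all genes (0.08). Imprinted growth genes have their median at -1.29 and complement genes at 1.79, while hedgehog genes lie on both sides.

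Of 13 collagen genes tested, 5 were at least 2-fold higher without overlap and 2 lower. Col4a1 of basement membranes was at 22.9 and 11.54 RPKM and then at 95.9 and 29.7, and Col6a3 at 15.1 and 9.87 and then at 35.5 and 30.1. Col4a1, Col5a1, Col12a1 and Col16a1, the higher members other than Col6a3, were under 2-fold when 1 capture was left out, at lowest 0.83, 0.44, 0.38 and 0.76 on the log2 scale. The abundant fibrillar Col3a1 was at 101 and 223 RPKM and then at 135 and 114, with overlap, and the direction of its fitted change turned in 1 of the 20 other settings.

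Cell cycle genes showed no common direction. Of 20 G2/M phase genes, 3 were higher and 0 lower. Among these, Mki67, a marker of cycling cells, was at 0.977 and 10.4 RPKM and then at 16.7 and 26.1, in 6 of 37 and 14 of 67 cells. Of 18 S phase genes, 0 were higher and 2 lower, among them Mcm3 (51.2 and 66.5, then 42 and 3.39 RPKM), whose log2 change was -0.46 in place of -2.11 without P6 capture 2. The G2/M genes Top2a (8.97 and 76.2, then 53.8 and 40.0 RPKM) and Cdk1 (28.3 and 70.05, then 44.2 and 21.8) and the S phase genes Mcm4 (83 and 51.8, then 76.6 and 16.3) and Tyms (40.3 and 104, then 42.8 and 21.5), the highest of their lists, overlapped.

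Matrix genes outside these families were higher in 9 of 29 members tested and lower in 1, with a list median of 0.47. Sparc, an abundant collagen-binding matrix gene, was at 641 and 490 RPKM at E16.5 and at 1051 and 883 at P6, a difference under 2-fold. Mgp, the matrix Gla protein gene, was at 399 and 193 RPKM and then at 770 and 420. Lama2, a laminin chain gene, was at 3.06 and 9.97 RPKM and then at 31.6 and 36.7, in 12 of 37 and 52 of 67 cells. Timp1, a metalloproteinase inhibitor gene, was at 4.51 and 21.7 RPKM and then at 49.1 and 57.7. Adamts1, a secreted protease gene, was the lower member (26 and 82.3, then 7.38 and 24.5). Lum, the lumican gene and the most abundant proteoglycan of its list outside the rule, was at 328 and 286 RPKM and then at 332 and 499.

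Contractile genes, chemokines and stress-related genes gave smaller lists. Of 13 smooth muscle and pericyte genes tested, 3 were at least 2-fold higher without overlap and 1 lower. Acta2, the smooth muscle actin gene, was at 196 and 32.6 RPKM and then at 436 and 260, and Tagln at 27.5 and 0.886 and then at 110 and 53.5, the latter in 11 of 67 cells at P6. Of these 11 cells, 8 also had Mfap5. Cxcl12, a chemokine gene, was at 8.86 and 4.44 RPKM and then at 35.4 and 48.4, in 5 of 37 and 38 of 67 cells, and Cxcl1 at 6.11 and 6.19 and then at 33 and 34.6, in 2 of 37 and 5 of 67 cells. Tsc22d3, a glucocorticoid-induced gene, was at 5.34 and 26.4 RPKM and then at 75.3 and 38.7. Of 18 lipid handling and antioxidant genes, 5 were higher and 4 lower. Gpx1, a glutathione peroxidase gene, was at 371 and 163 RPKM and then at 113 and 74.3, the opposite direction to Gstm1. Of 8 retinoid genes, 2 were higher and 3 lower, with Dhrs3, a retinaldehyde reductase gene, at 146 and 216 RPKM and then at 503 and 260.

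Counts in several signalling lists were near or below the shares of all genes. Of 20 BMP and TGF-beta genes tested, 3 were higher and 2 lower, with the target genes Id2 (575 and 773, then 375 and 397 RPKM) and Id3 (357 and 344, then 157 and 271) lower by under 2-fold without overlap. Of 4 Notch genes and 5 PDGF and KIT genes tested, 0 were at least 2-fold apart without overlap. Notch2, a receptor gene, was at 63.6 and 64.9 RPKM and then at 30.4 and 42.5. Of 16 cholesterol genes, 1 was higher and 0 lower, and of 17 immediate early genes 1 and 1. Egr1, an immediate early gene, was at 1016 and 589 RPKM and then at 1397 and 634. Of 6 HOX genes tested, 0 were at least 2-fold apart without overlap, and Hoxd8 was at 47.1 and 56.2 RPKM and then at 48 and 43.

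Some lower genes were those of the surface epithelium or of few cells. Upk1b, a uroplakin gene of that epithelium, was at 97.3 and 44.9 RPKM at E16.5 and at 0 in both P6 captures, but was detected in 3 cells of E16.5 only. Krt19 was at 47.7 and 14.8 RPKM and then at 0 and 0.0825. Both passed the filter through E16.5 alone, as did Crabp1 and Sema3a below, so their captures could not overlap. Of 9 surface epithelium markers tested, 6 were at least 2-fold lower without overlap. Leaving out the 6 cells with these markers, an alternative chosen after seeing the data, Krt19 had a log2 change of -2.42 in place of -4.74, Crip1 one of -0.77 in place of -3.67, and Upk1b was too low to test. Without these cells the change was -4.21 for H19, -3.57 for Meg3, 6.15 for Ogn and 5.18 for Ptch1. Of the 1332 genes at least 2-fold lower without overlap, 1062 kept this without those cells, and 1631 of the 1778 higher genes did. The other lower genes named by the rule were Crabp1, a retinoic acid-binding protein gene (33.5 and 70.1 RPKM, then 0 and 0; 6 of 37 cells), Sema3a, a guidance factor gene (35.4 and 37.3, then 0 and 0; 11 of 37 cells), and Crip1 (138 and 56, then 8.14 and 4.37; 6 of 37 cells).

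The change in stromal-lineage cells was then compared with that in the 83 supporting-lineage cells of the same 4 chips, as a difference of the 2 changes. limma called 0 of 13616 genes on log2 capture means (0%), with 1175 at an unadjusted p under 0.05 and a smallest adjusted p of 0.297. With the mean over cells of log2 values it called 24 genes with a more positive change in stromal-lineage cells (0.176%) and 30 with a more negative one (0.22%). Ogn was among the former, at 0.0216 and 0 RPKM in supporting-lineage cells at E16.5 and at 2.30 and 20.4 at P6 (difference 4.46 ± 0.66 SE, adjusted p = 0.0111). On log2 capture means the difference for Ogn was 2.43 ± 1.46 (adjusted p = 0.708). Gpc3, a glypican gene, was at 210 and 181 RPKM and then at 8.08 and 10.1 in supporting-lineage cells, and at 359 and 156 and then 282 and 376 in stromal-lineage cells (4.68 ± 0.74, adjusted p = 0.0152, and 4.75 ± 0.54, adjusted p = 0.297, on log2 capture means).

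Among the 30 with a more negative change, Mmp11 was at 20.9 and 29.1 RPKM and then at 96.8 and 19 in supporting-lineage cells (-4.63 ± 0.88 SE, limma adjusted p = 0.0431), and Isyna1 at 330 and 261 and then at 445 and 594 (-4.33 ± 0.75, adjusted p = 0.0234). Igfbp5 was at 24.6 and 133 RPKM and then at 236 and 74.2 there (-4.89 ± 0.79, adjusted p = 0.0154). Inha, the inhibin subunit gene of granulosa cells, was at 40.7 and 38.7 RPKM and then at 3587 and 2517 in supporting-lineage cells, and at 3.55 and 0.0173 and then 212 and 31.2 in stromal-lineage cells, where 1 cell gave 78.5% and 97.1% of the P6 signal. Its difference was -6.06 ± 0.86 (adjusted p = 0.00861) with the mean over cells of log2 values and -0.94 ± 1.001 (adjusted p = 0.869) on log2 capture means. On the latter scale it was -4.11 ± 0.95 for Mmp11, -3.78 ± 0.42 for Isyna1 and -3.46 ± 0.85 for Igfbp5, with adjusted p of 0.535, 0.297 and 0.535. The difference in change between the classes for H19 was not called on log2 capture means (1.59 ± 1.41, adjusted p = 0.827): its supporting-lineage levels were 423 and 540 RPKM at E16.5 and 58.2 and 0.0925 at P6. Ptch1 was at 7.30 and 2.24 RPKM and then at 15.9 and 21.2 in those cells (3.39 ± 1.10, adjusted p = 0.535, on log2 capture means). The reporter itself, eGFP, was at 390 and 135 RPKM and then at 817 and 725 in stromal-lineage cells, against 2008 and 1423 and then 519 and 553 in supporting-lineage cells (4.86 ± 0.55, adjusted p = 0.00672, with the mean over cells of log2 values, and 3.39 ± 0.40, adjusted p = 0.297, on log2 capture means). The cells had been sorted on it.

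**Figure D5:**
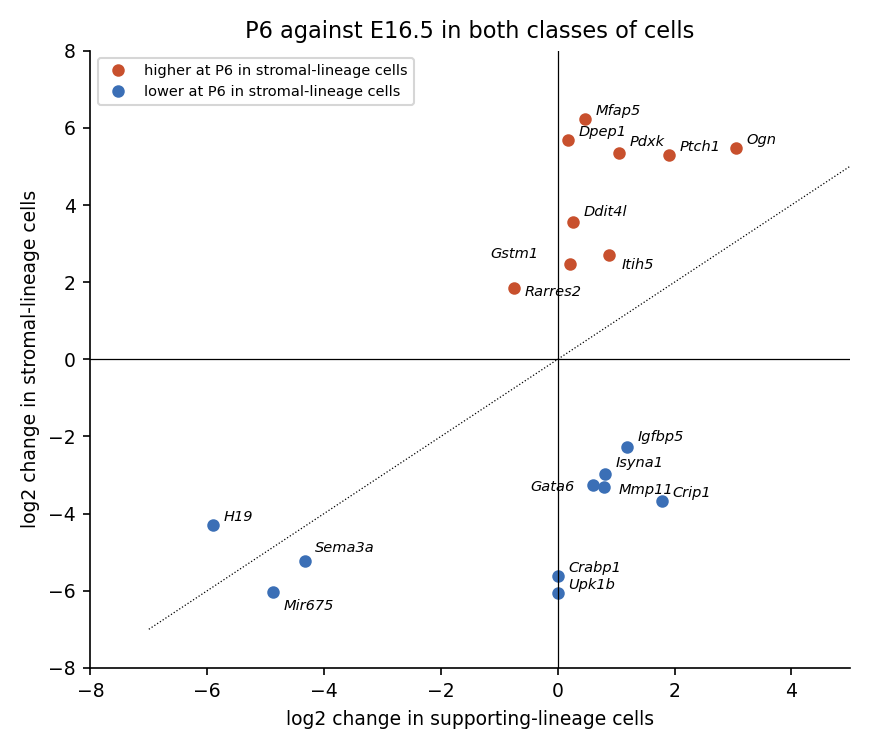
Log2 change from E16.5 to P6 in supporting-lineage cells (x axis) against stromal-lineage cells (y axis) for 9 genes higher (red) and 10 lower (blue) at P6 in the latter, with equal changes on the dotted line; both axes are differences of log2(RPKM + 1) between mean levels of the 2 captures. H19, Mir675 and Sema3a are lower in both classes, whereas Mmp11, Isyna1, Igfbp5 and Gata6 have changes above 0 in supporting-lineage cells. In those cells the captures of Mmp11, Igfbp5 and Gata6 overlap between the stages, and only those of Isyna1 do not.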

How the data were processed

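Single-cell RNA-seq values were taken from 1 deposited table of RPKM per gene and library, which the authors made. Reads had been mapped to GRCm38 (p3, mm10), per the submitters' processing notes. Which aligner, counter and annotation they used is not given in the sources used here. The table held 663 libraries, of which 2 were of 1 cell and were averaged, and 43347 gene names, of which 27 turned into dates were left out. Columns were matched to samples by title, and each chip run was 1 replicate. The unit is not named in the file and was read from the values.

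RPKM values of gated cells were averaged per capture, and genes with at least 1 RPKM in at least 2 of the 4 captures were fitted with limma 3.58.1 in R 4.3.3 (intensity trend) on log2(mean + 1), the pseudocount being 1 RPKM, with Benjamini-Hochberg adjusted p-values over all genes tested, two-sided. Errors printed after ± are standard errors of limma. A gene was called detected in a cell at 1 RPKM. Non-overlap means that both captures of a stage lay above both of the other. Places and names come from GENCODE vM21, and 11198 of the 11904 tested names matched it. The genes named were the 10 with the lowest p in each direction among genes of at least 10 RPKM whose captures did not overlap and whose names are not provisional, since fewer than 10 were called, with the 2 highest members of each gene list. A few items that the rule or the lists hold are not reported here. Further genes were named after their values were seen. The members and all 28 gene lists and 10 marker lists were chosen with earlier results of these data known. Alternatives changed the pseudocount, the filter, the summary over cells, the scaling, the gate, the cells kept, the captures and the limma settings.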

Additional observations from a re-analysis of the deposited data

How the results depend on the processing

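The count of 0 called genes between P6 and E16.5 became 50 with all captures in the fit and 10 with the mean over cells of log2(RPKM + 1), and stayed at 0 in the 18 other settings, each capture left out among them. The smallest adjusted p over those settings lay between 0.184 (pseudocount 10 RPKM) and 0.761 (without P6 capture 1). For the difference of changes between both classes of cells, 54 genes were called with the mean over cells of log2(RPKM + 1) and 0 in the 11 others. Of the 154 genes named or described that were tested, 27 changed the sign of their log2 change in at least 1 of the 20 settings, none of them a gene at least 2-fold apart without overlap. Among those 27, the sign of Nr5a1, Col3a1, Mfap4 and Cdk1 turned without E16.5 capture 2, that of Egr1 without it or without P6 capture 1, that of Top2a without E16.5 capture 1, that of Mcm4 without P6 capture 2, and that of Snai2 with the mean over cells of log2 values. Mfap4 also turned without P6 capture 1 and without the cells with surface epithelium markers, and Cdk1 with the mean over cells of log2 values. Of the 111 described genes at least 2-fold apart without overlap, 25 were under 2-fold when 1 capture was left out, among them Mgp, Acta2, Ndn, Gpx1, Dhrs3, Grb10, Smo, Igfbp4 and Mki67. Quantile normalization moved the median log2 change of all genes from 0.08 to -0.01. A depth-limited gene can be missed in single cells, so a gene listed at 0 is not shown to be absent. No paired analysis was possible because the capture numbers were given in accession order and pair nothing between stages.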
